A study of Mus musculus with 16 samples.

Results

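C/EBPalpha was introduced without IRF8 into 32Dcl.3 cells, a clonal mouse myeloid progenitor line that depends on IL-3, and RNA was profiled 3 days after transduction. The arrays were chosen by their plasmid labels: 2 arrays of cells given murine C/EBPalpha cDNA in MSCV-IRES-puro together with the empty MSCV-IRES-hCD8t vector, and 2 arrays of cells given both vectors empty, which are 4 of the 16 arrays of the series. Both groups carry the same vector pair, were spinoculated with retrovirus and grew in conditioned medium of WEHI3B cells, a source of IL-3. The 2 arrays of a group come from 2 independent experiments. For comparison, 4 further arrays of the same line hold C/EBPalpha together with murine IRF8 (2 arrays) and IRF8 with the empty puro vector (2 arrays), and the remaining arrays hold sorted primary progenitors and are not described. The model has limits: a retroviral vector carries the cDNA, the line is 1 clone, and whether transduced cells were enriched before RNA extraction is not stated. Because each array measured RNA pooled from many cells, fewer cells of a type and less RNA per cell cannot be told apart.

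C/EBPalpha is a basic leucine zipper transcription factor that binds DNA as a dimer and is needed for the step from early myeloid progenitors to granulocyte and monocyte progenitors. In granulocytic differentiation it acts upstream of C/EBPepsilon, Gfi1 and the genes of neutrophil granules, and it restrains cell division. Neutrophil granules are made in waves: primary (azurophil) granules at the promyelocyte stage, then secondary and tertiary granules that carry lactoferrin, lipocalin and gelatinases. 32D cells are known for granulocytic maturation when G-CSF replaces IL-3.

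The arrays were single-colour Agilent arrays, and each value below is a scaled signal, in which the 75th percentile of an array's probes is set to 100. A change is the log2 difference of the group means, C/EBPalpha minus empty vectors, given ± its standard error from limma (n = 2 arrays a group, with the spread shared over the 8 arrays of 32Dcl.3 cells), and a gene was called when its Benjamini-Hochberg adjusted p was under 0.05. Signals are compared between groups for a gene and never between genes. Array replicates correlated at 0.9961 with C/EBPalpha and 0.9973 with empty vectors (log2 signal across genes). Before scaling, the C/EBPalpha arrays were dimmer, with a 75th percentile of 218.1 and 214.6, against 460.1 and 445.2 on the empty vector arrays, while the 4 bright spike-in transcripts differed by 0.18 on the log2 scale in the mean. All directions are therefore relative to the 75th percentile: set to the spike-ins instead, every log2 change moves by −1.24, and a rise of less than 2.365-fold becomes a fall. All 8 arrays shared 1 slide, but the C/EBPalpha arrays lay at other positions on it than the empty vector arrays, so position and C/EBPalpha cannot be told apart.

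The labels could not be checked on the introduced gene. The Cebpa probe was not well above background on any array, with processed signals before scaling of 3.49 and 3.18 on the C/EBPalpha arrays and 3.52 and 3.39 on the empty vector arrays, and the Irf8 probe likewise gave 2.32 and 2.44 against 13.04 and 6.76. Whether these probes lie within the cDNAs is not known from the labels. The line's identity was checked on 11 markers of myeloid progenitors, of which 10 were detected on all 4 arrays, among them Mpo, Elane, Prtn3, Ctsg, Spi1, Ptprc and Cd34. The exception was Kit, whose probe was not well above background on any of them.

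**Figure D1:**
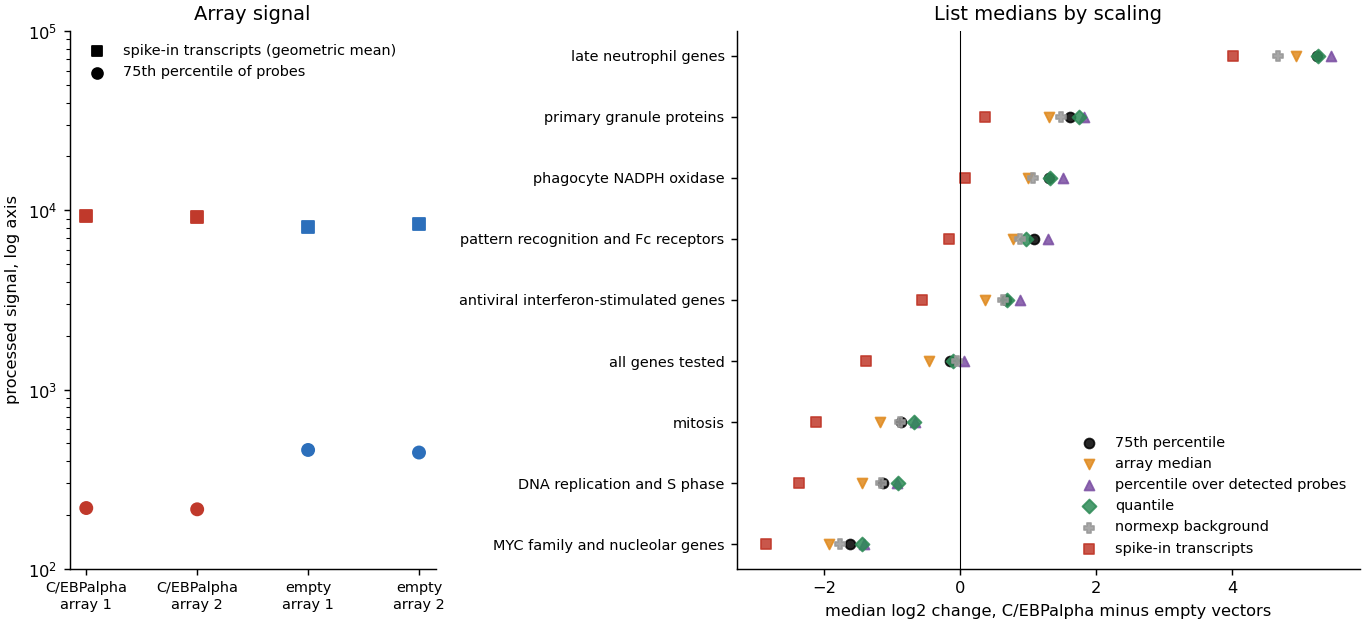
Left, processed signal of the 4 arrays on a log axis, as the 75th percentile of all probes (circles) and the geometric mean of the bright spike-in transcripts (squares). Right, median log2 change of selected gene lists, C/EBPalpha minus empty vectors, under each way of scaling the arrays. The C/EBPalpha arrays have the lower 75th percentile at like spike-in signal, and the medians of the pattern recognition and antiviral lists turn negative with spike-in scaling while those of the late neutrophil and primary granule lists stay above 0 and those of the mitosis, S phase and MYC lists stay below it.

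Most of the genes tested were called, the larger part of them at changes under 2-fold. Of 13337 genes tested, 10509 were called (78.8%), 4221 of them higher with C/EBPalpha (31.6%) and 6288 lower (47.1%), around a median change of −0.14 over all genes. Changes of at least 2-fold were called upward for 1498 genes (11.2%) and downward for 1627 (12.2%), a split that depended on the scaling, with 1030 and 3063 after array-median scaling, 1977 and 1002 with the percentile taken over detected probes and 462 and 9034 after spike-in scaling. The largest fitted changes ran upward: 131 genes rose at least 16-fold and 37 at least 64-fold, while 2 genes fell at least 16-fold. These counts, here and below, include genes not well above background in 1 group, whose fitted change can exceed its bound. Cd36 and Clec5a count among the 131, with bounds of 6.16-fold and 11.3-fold. The 2 falls were Shank3 and Prdm12, with bounds of only 5.18-fold and 5.57-fold. Of the 131, 32 belong to a gene list described below and 19 to the list of late neutrophil genes. With spike-in scaling 779 genes were called higher and 11563 lower, with scaling to the array median 2676 and 7934, and with the percentile taken over detected probes 5571 and 4962. All 131 genes that rose at least 16-fold and all 1627 that fell at least 2-fold kept their call and direction with spike-in scaling, whereas of the 1498 that rose at least 2-fold 779 were still called higher and 61 were called lower.

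**Figure D2:**
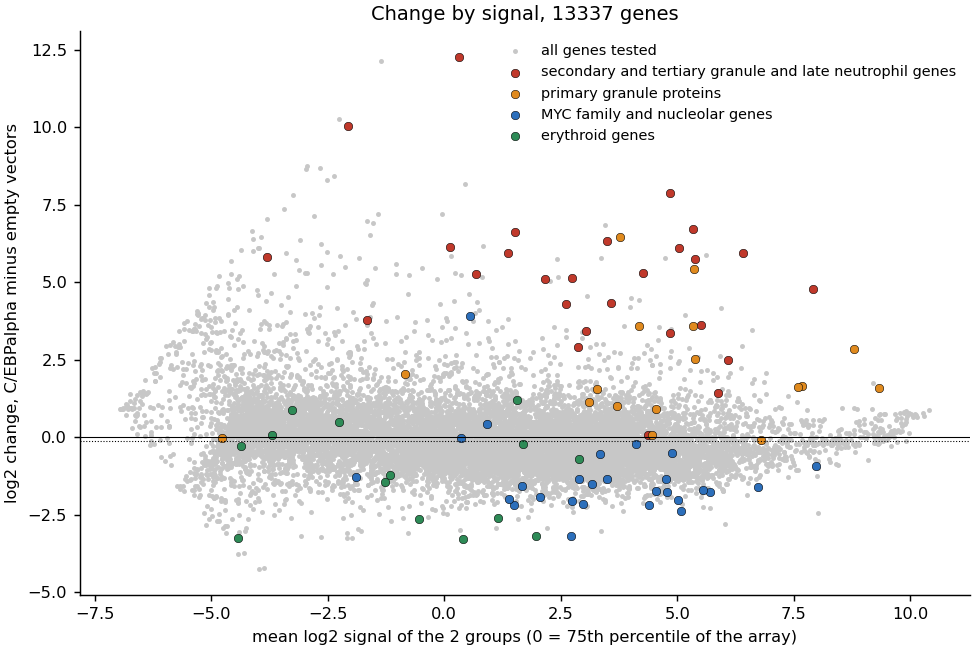
Log2 change (C/EBPalpha minus empty vectors) against the mean log2 signal of both groups (0 is the 75th percentile of the array), with 1 point for each of 13337 genes and 4 gene lists coloured; the dotted line is the median of all genes. Late neutrophil genes reach from near 0 to a change above 12, and the MYC and nucleolar genes lie mostly below −1.

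Many of the largest rises were genes of neutrophil granules and of cystatin-type protease inhibitors. Ltf, the gene for the secondary granule protein lactoferrin, had a scaled signal of 43882 and 43563 with C/EBPalpha, against 176 and 197 with empty vectors, a 235-fold rise (log2 change 7.88 ± 0.049, adjusted p = 3.8e-17). Ngp, the neutrophilic granule protein, stood at 41402 and 41601 in C/EBPalpha cells and 404 and 378 in empty vector cells (6.73 ± 0.035). Camp, which encodes the antimicrobial cathelicidin, stood at 2018 and 2081 in C/EBPalpha cells and 33.6 and 32.3 in empty vector cells (5.96 ± 0.064). For these 3 genes the empty vector arrays already gave a signal well above background, and both C/EBPalpha arrays lay far above both empty vector arrays. Among the stefin and cystatin A genes, which encode intracellular inhibitors of cysteine proteases, Csta2 stood at 11950 and 11678 in C/EBPalpha cells and 101 and 102 in empty vector cells (6.86 ± 0.034), Stfa3 rose by 6.62 and Stfa1 by 6.09. These genes lie in a cluster of near-identical copies, so the probes may share signal.

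The other leading rises were of mixed function, although Lyz2 belongs to the primary granule list below and Wfdc21 to the late neutrophil list. Mogat2, a monoacylglycerol acyltransferase of triglyceride synthesis, had the largest change among genes detected on all 4 arrays, with 2309 and 2343 with C/EBPalpha, against 7.67 and 8.55 with empty vectors (8.17 ± 0.065). Prom1, which encodes the membrane protein prominin-1 (CD133), stood at 1189 and 1176 in C/EBPalpha cells and 7.04 and 9.01 in empty vector cells (7.21 ± 0.12). Lyz2, the macrophage-type lysozyme gene, stood at 12667 and 13015 in C/EBPalpha cells and 144 and 147 in empty vector cells (6.46 ± 0.029). In each case the groups were far apart and the 2 arrays of a group close together. The whey acidic domain gene Wfdc21 rose by 6.32, the chitinase-like gene Chil1 by 6.15 and Ankrd22 by 6.19.

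For some genes the empty vector arrays gave no signal well above background, and the rise is a lower bound, set against the lowest signals that were detected. Retnlg, which encodes a resistin-like protein of neutrophils, was at least 3054-fold higher, with 8722 and 8823 with C/EBPalpha, against 1.16 and 2.698 with empty vectors. Mgst1, a microsomal glutathione transferase, was at least 912-fold higher, at 2631 and 2612 in C/EBPalpha cells and 0.578 and 0.573 in empty vector cells. Mmp8, the neutrophil collagenase, was at least 269.8-fold higher, and Cd1d1, which encodes a lipid-presenting molecule, at least 256-fold. In all, 192 called genes were detected on both C/EBPalpha arrays and on neither empty vector array, and 175 the other way round. The largest bounds downward were smaller: Bex6 was at least 5.37-fold lower, Shank3 at least 5.18-fold and Pglyrp2, a peptidoglycan amidase, at least 4.71-fold. The Shank3 bound rests on 1 of its 2 kept probes, and the other changed by only −0.23. The Nqo1 and Prdm12 bounds rest on empty vector arrays that disagreed, at 135 and 9.62 for Nqo1 and 8.06 and 111 for Prdm12, and without the first empty vector array the Nqo1 change was −1.29 and no longer called (adjusted p = 0.06651), as without the second C/EBPalpha array (−2.59, adjusted p = 0.05192).

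**Figure D3:**
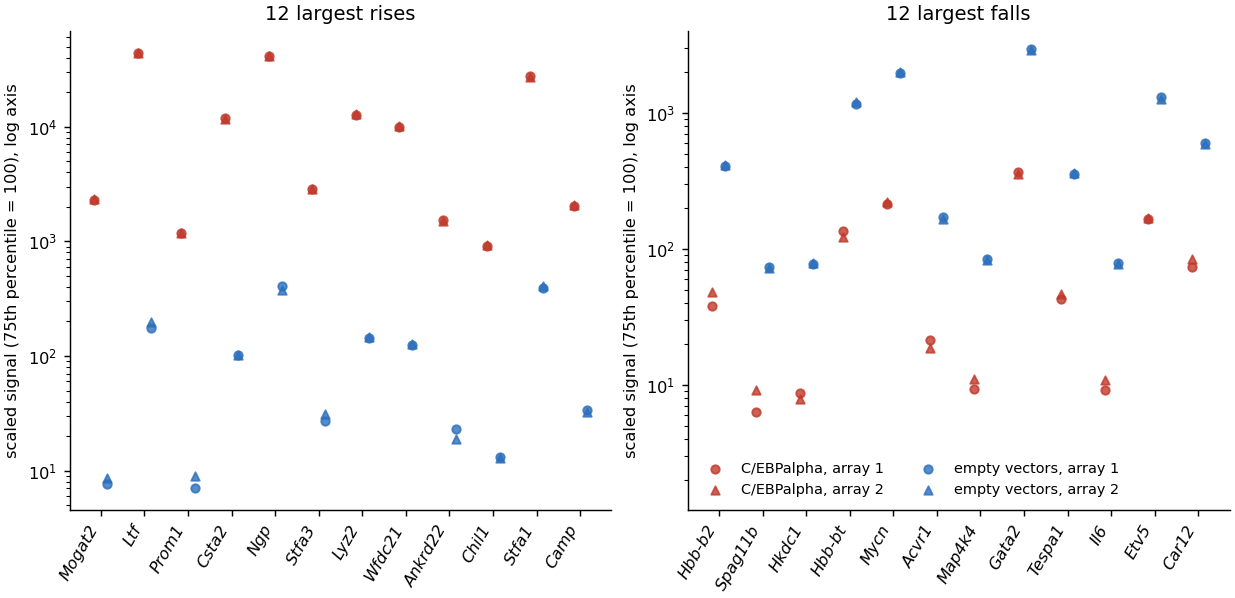
Scaled signal (75th percentile of the array = 100, log axis) of the 12 largest rises and 12 largest falls among genes detected on all 4 arrays, with C/EBPalpha in red left of empty vectors in blue and 1 symbol for each array. The 2 arrays of a group lie close together and the groups do not overlap for any of the 24 genes, which were picked for their change.

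The largest falls were smaller than the largest rises and included transcription factors of early progenitors. Gata2, a zinc finger factor of stem, mast and early erythroid cells, had 369 and 357 with C/EBPalpha, against 2942 and 2929 with empty vectors (-3.02 ± 0.040). Mycn, a MYC family proto-oncogene, had 215 and 219.8 with C/EBPalpha, against 1986 and 1988 with empty vectors (-3.19 ± 0.091). Il6, the gene for interleukin 6, had 9.13 and 10.9 with C/EBPalpha, against 78.9 and 77.2 with empty vectors (-2.97 ± 0.13). All 3 were lower on both C/EBPalpha arrays than on either empty vector array. The beta globin gene Hbb-bt stood at 135 and 123 in C/EBPalpha cells and 1165 and 1196 in empty vector cells (-3.200 ± 0.042), and Hbb-b2 fell by 3.28, although the globin copies are alike enough to share signal. Also among the 12 largest falls were Etv5, an ETS family transcription factor (-2.94), Acvr1, a BMP type I receptor (-3.09), Map4k4, a kinase upstream of JNK (-3.04), Hkdc1, a hexokinase-like gene (-3.25), and Car12, a membrane carbonic anhydrase (-2.93). The other kept Acvr1 probe fell by only 1.36.

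Promoter sequence was set beside these rises because C/EBP dimers bind palindromes of the type TTGCGCAA. The loose form TTGCNNAA was searched on both strands from 250 bases before to 50 bases after each RefSeq gene start (build GRCm38.p6). Of the 12 largest rises 10 had a promoter in that table and 4 of them held a match, shown here 5′ to 3′ along the gene's strand with the match in capitals.
Ltf: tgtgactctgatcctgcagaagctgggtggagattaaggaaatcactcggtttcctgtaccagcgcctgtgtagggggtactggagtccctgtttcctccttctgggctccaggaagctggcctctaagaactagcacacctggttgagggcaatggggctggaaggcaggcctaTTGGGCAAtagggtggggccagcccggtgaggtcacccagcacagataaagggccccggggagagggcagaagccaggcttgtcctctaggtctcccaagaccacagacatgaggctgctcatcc
Ngp: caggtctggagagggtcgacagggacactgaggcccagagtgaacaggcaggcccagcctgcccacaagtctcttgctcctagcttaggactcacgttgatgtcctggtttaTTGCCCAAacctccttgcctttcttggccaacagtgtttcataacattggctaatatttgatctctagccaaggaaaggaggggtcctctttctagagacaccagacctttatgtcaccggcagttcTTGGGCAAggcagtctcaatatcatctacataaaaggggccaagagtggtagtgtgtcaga
Ankrd22: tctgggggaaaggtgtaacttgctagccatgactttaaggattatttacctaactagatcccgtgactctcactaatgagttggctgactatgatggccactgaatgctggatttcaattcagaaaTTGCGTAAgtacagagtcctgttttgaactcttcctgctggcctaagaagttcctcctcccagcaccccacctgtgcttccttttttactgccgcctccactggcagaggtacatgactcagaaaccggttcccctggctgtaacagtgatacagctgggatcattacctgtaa
Stfa1: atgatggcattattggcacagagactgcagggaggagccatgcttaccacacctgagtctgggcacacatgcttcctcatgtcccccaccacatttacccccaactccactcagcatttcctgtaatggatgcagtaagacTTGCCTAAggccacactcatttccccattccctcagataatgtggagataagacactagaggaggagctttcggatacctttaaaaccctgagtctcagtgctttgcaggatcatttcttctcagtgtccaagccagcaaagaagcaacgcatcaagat
The Ltf window is chr9:111019042-111019341 on the plus strand, with the match starting 75 bases before the start of the gene, at position −75. The Ngp window is chr9:110419558-110419857 on the plus strand, with matches at −138 and −11, the Ankrd22 window is chr19:34165992-34166291 on the minus strand, with a match at −124, and the Stfa1 window is chr16:36276898-36277197 on the plus strand, with a match at −109. A match was present for 33.3% of the genes that rose at least 16-fold (35 of 105 with a promoter), 15.7% of those that rose at least 2-fold (185 of 1178), 10.8% of all genes tested (1152 of 10690), 11.1% of genes not called (246 of 2221) and 9.59% of those that fell at least 2-fold (127 of 1324). Among late neutrophil genes it was present for 10 of 25. The full palindrome TTGCGCAA was rare, present for 1 of the 105 genes that rose at least 16-fold, 0 of the 25 late neutrophil genes and 32 of the 10690 genes tested. A match describes the letters of the window only, and no binding was measured.

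Genes of secondary and tertiary granules and late neutrophils rose together. Of 37 listed genes 27 were measured above the filter, 26 of these were called higher and none lower, with a median change of 5.25 against −0.14 over all genes, or 4.01 with spike-in scaling, under which the uncalled member was called lower. A member that passed the filter only on C/EBPalpha arrays had to differ, as Retnlg and Mmp8 did, and with such members at their bounds the median was 5.15. The counts of this and the lists below stand against 31.6% of all genes called higher and 47.1% called lower. The uncalled member was Padi4, the enzyme that citrullinates histones, at 2172 and 2090 in C/EBPalpha cells and 2007 and 2058 in empty vector cells (0.07 ± 0.036, adjusted p = 1.0e-01). Members below the filter were Mmp9, Mmp25, Itgb2l, Fpr1, Fpr2 and Arg2.

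The calprotectin subunits, which bind calcium and zinc, rose as a pair. S100a8 stood at 69913 and 64212 in C/EBPalpha cells and 1077 and 1081 in empty vector cells (5.96 ± 0.038), and S100a9 at 125870 and 127331 in C/EBPalpha cells and 4709 and 4585 in empty vector cells (4.77 ± 0.028). Lcn2, the siderophore-binding lipocalin of secondary granules, stood at 30648 and 30486 in C/EBPalpha cells and 582 and 561 in empty vector cells (5.74 ± 0.030). Hp, which encodes haptoglobin, rose by 5.29, and Cd177, a neutrophil surface protein, by 5.15. Smaller rises were those of Chil3 (Ym1, 2.92) and Pglyrp1, a peptidoglycan recognition protein (2.48). These members were named after their values were seen.

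Primary granule genes, which empty vector cells already expressed, rose by less. All 17 listed genes were measured, and 15 were called higher and 1 lower, with a median of 1.61, or 0.37 with spike-in scaling. Under that scaling 11 were called higher and 5 lower. Mpo, myeloperoxidase, stood at 118428 and 117074 in C/EBPalpha cells and 16218 and 16763 in empty vector cells (2.84 ± 0.033). Elane, neutrophil elastase, stood at 6378 and 6292 in C/EBPalpha cells and 510.03 and 537 in empty vector cells (3.597 ± 0.038). The other serine proteases of these granules followed, with Prtn3, proteinase 3, at 2.51 ± 0.036 and Ctsg, cathepsin G, at 1.600 ± 0.030. Ms4a3, a membrane protein of granulocyte and monocyte progenitors, rose by 3.58, and the lysozyme gene Lyz1 by 5.42, whose sequence is close to that of Lyz2. The gene called lower was Calr, the chaperone calreticulin, at -0.11 ± 0.036, a change that turned positive under other scalings, up to 0.10, and that was not called without the first array of either group (−0.08 in both cases).

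The phagocyte NADPH oxidase, the enzyme that makes superoxide, rose in nearly all its subunits, with 7 of 8 measured genes called higher, 1 lower and a median of 1.31, or 0.07 with spike-in scaling. The catalytic membrane subunit Cybb (gp91phox) was not well above background on either empty vector array and was at least 18.7-fold higher, with 52.1 and 55.4 with C/EBPalpha, against 1.41 and 0.642 with empty vectors. Its membrane partner Cyba (p22phox) stood at 27978 and 28378 in C/EBPalpha cells and 12796 and 13167 in empty vector cells (1.12 ± 0.028). Of the cytosolic subunits, Ncf1 (p47phox) rose by 1.64 ± 0.051 and Ncf4 (p40phox) by 1.78 ± 0.029. Of the small GTPases that complete the complex, Rac2 was at 0.33 ± 0.029 and Rac1, the gene called lower, at -0.14 ± 0.026, which turned positive under 3 other scalings. Cybc1, a chaperone of the membrane subunits, was at 0.78 ± 0.028. With spike-in scaling 4 of the 8 remained called higher and 3 were called lower.

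**Figure D4:**
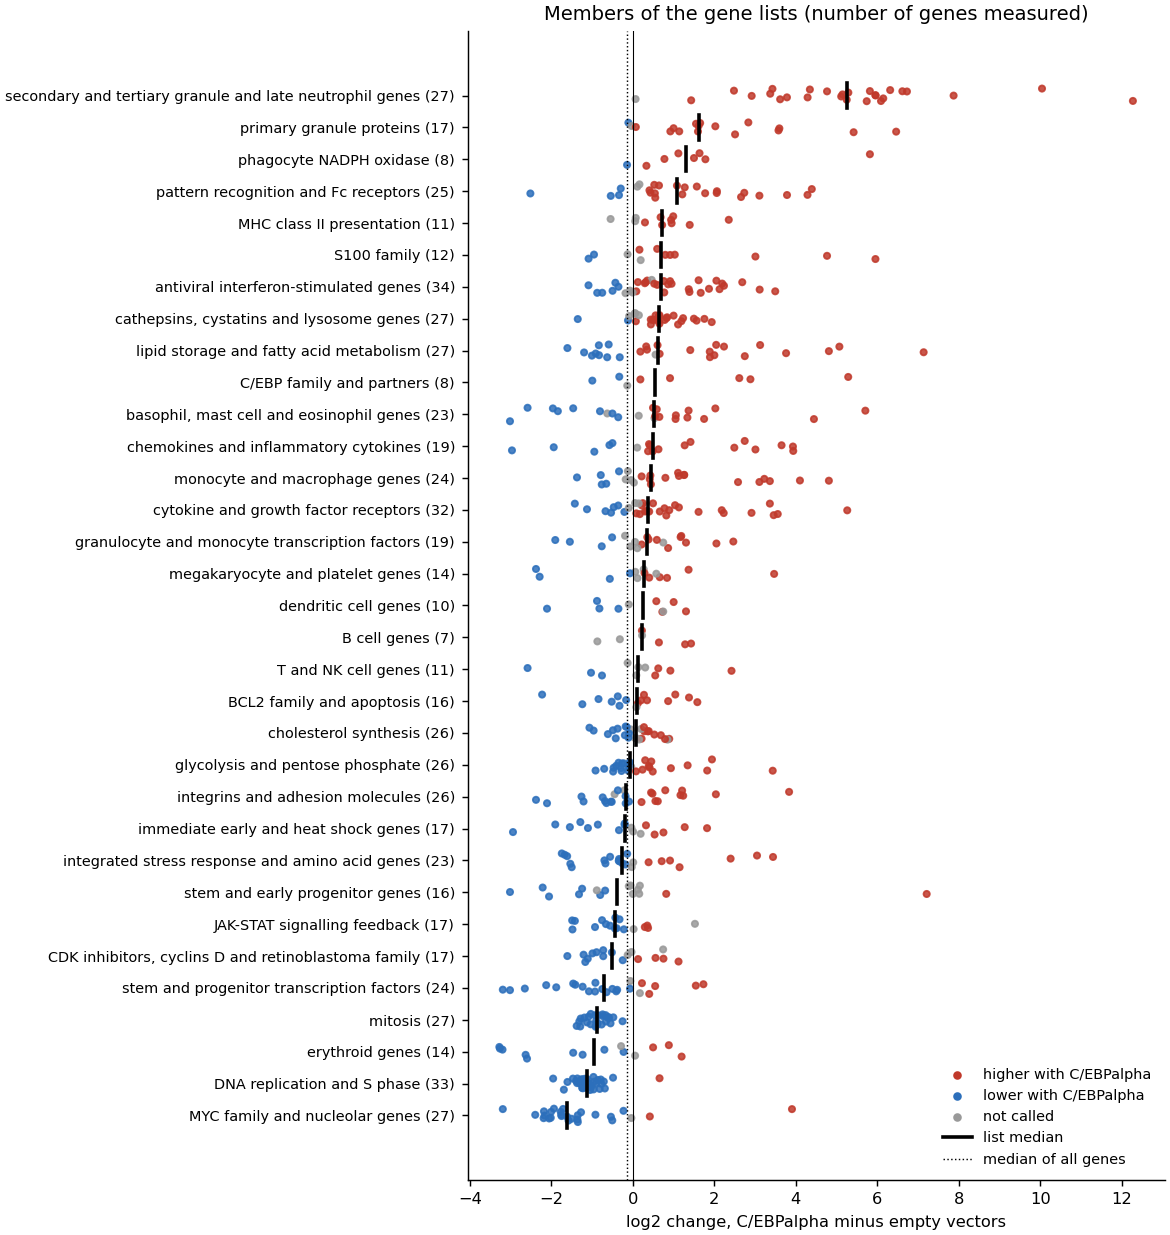
Log2 change of every measured member of 33 gene lists, 1 point a gene, coloured by its call; thick bars are list medians and the dotted line is the median of all genes tested. The late neutrophil list lies farthest to the right, with a median of 5.25, and the MYC and nucleolar list farthest to the left, with −1.61. Relative to spike-ins every point would lie 1.24 farther left, which takes the medians of all lists below the NADPH oxidase list under 0.

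Within the C/EBP family, the factors that follow C/EBPalpha in granulocytes rose. Cebpe, the family member of late granulopoiesis, stood at 14720 and 15226 in C/EBPalpha cells and 2418 and 2473 in empty vector cells (2.61 ± 0.029), and Cebpd at 10475 and 10262 in C/EBPalpha cells and 1342 and 1464 in empty vector cells (2.89 ± 0.038). Trib1, a pseudokinase that targets C/EBPalpha protein for degradation, stood at 749 and 713 in C/EBPalpha cells and 20.3 and 17.2 in empty vector cells (5.29 ± 0.083). Both C/EBPalpha arrays exceeded both empty vector arrays for all 3. Cebpb was at 0.19 ± 0.029, below 0 with array-median and spike-in scaling, and Ddit3 (CHOP), a family member of the stress response, was at 0.91 ± 0.056. Of the 8 measured genes of the family and its partners, 5 were called higher and 2 lower, with a median of 0.55, or −0.69 with spike-in scaling.

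Among 19 measured transcription factors of granulocytes and monocytes, 10 were called higher and 4 lower, with a median of 0.35, or −0.89 with spike-in scaling. Gfi1, a repressor needed for neutrophils, stood at 7740 and 7666 in C/EBPalpha cells and 1403 and 1383 in empty vector cells (2.47 ± 0.040). Spi1 (PU.1), the ETS factor of all myeloid cells, stood at 479 and 476 in C/EBPalpha cells and 208 and 211 in empty vector cells (1.19 ± 0.039), close to the shift of the spike-in scaling, which left −0.05. Irf7, an interferon regulatory factor, rose by 2.05 at low signal, and Id2, an inhibitor of helix-loop-helix factors, by 1.31. Egr1 and Egr2, zinc finger factors tied to monocyte fate, were not well above background on either C/EBPalpha array and were at least 1.205-fold and 1.33-fold lower. Their fitted changes were above 0 after normexp background correction, and Egr2 was not called without the first C/EBPalpha array (−0.80) or without the second empty vector array (−1.18). Irf5 fell by 0.76.

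Transcription factors of stem and progenitor cells mostly fell: 17 of 24 measured were called lower and 5 higher, with a median of −0.70, or −1.94 with spike-in scaling. Besides Gata2 and Mycn, Gfi1b, the Gfi1 paralog of erythroid and megakaryocytic cells, stood at 114 and 125 in C/EBPalpha cells and 753 and 742 in empty vector cells (-2.65 ± 0.054). Ikzf2 (Helios) stood at 173 and 178 in C/EBPalpha cells and 788 and 743 in empty vector cells (-2.13 ± 0.052). Both fell well beyond the spread of the arrays. In the other direction, Ikzf1 (Ikaros) stood at 118 and 114 in C/EBPalpha cells and 36.6 and 33.2 in empty vector cells (1.73 ± 0.084), and Myb, a proto-oncogene of progenitors, at 5818 and 5790 in C/EBPalpha cells and 4011 and 3927 in empty vector cells (0.55 ± 0.033), with −0.69 by spike-in scaling. The other kept Ikzf1 probe rose by 0.87, less than the shift of the spike-in scaling. A list of stem and early progenitor genes, which shares members such as Gata2 with these factors, was called lower about as often as all genes. Of 16 measured, 2 were called higher (12.5%, against 31.6% of all genes) and 7 lower (43.8%, against 47.1%). The median was −0.39, or 0.05 under the highest of the other scalings. With spike-in scaling it was −1.63, against −1.38 over all genes, and 1 gene was called higher and 15 lower. The largest change of this list was the rise of Prom1 given above, while Cd34, a surface sialomucin of early progenitors, stood at 30.2 and 25.3 in C/EBPalpha cells and 127 and 129 in empty vector cells (-2.21 ± 0.095) and Slamf1 (CD150) fell by 2.06. A dimmer Cd34 probe showed no such fall, at 5.35 and 4.20 with C/EBPalpha, not well above background, against 4.44 and 5.88 with empty vectors.

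Receptors for cytokines and growth factors shifted in composition. Of 32 measured, 22 were called higher and 7 lower, with a median of 0.37, or −0.87 with spike-in scaling. Cxcr2, the chemokine receptor of mature neutrophils, stood at 299.96 and 303 in C/EBPalpha cells and 7.47 and 8.24 in empty vector cells (5.26 ± 0.14). Il6ra, the ligand-binding chain for IL-6, stood at 717 and 709 in C/EBPalpha cells and 61.6 and 68.3 in empty vector cells (3.46 ± 0.048), while the gene for its ligand, Il6, fell and the probe of its signalling partner Il6st was below the filter. Cxcr4, the chemokine receptor that holds myeloid cells in marrow, rose by 2.23.

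The receptors for IL-3 and GM-CSF share a beta chain, and their subunits went different ways. Csf2ra, the GM-CSF-specific alpha chain, stood at 1771 and 1721 in C/EBPalpha cells and 151 and 146 in empty vector cells (3.56 ± 0.039). Il3ra, the IL-3-specific alpha chain, changed by 0.34 ± 0.028, and the shared beta chain Csf2rb by -0.21 ± 0.036. Csf2rb2, the mouse beta chain that serves IL-3 only, stood at 4242 and 4118 in C/EBPalpha cells and 9125 and 9114 in empty vector cells (-1.13 ± 0.027). Both alpha chains were called higher and both beta chains lower, although Il3ra turned negative with spike-in scaling and Csf2rb was at 0.03 with quantile normalization. Csf3r, the G-CSF receptor through which 32D cells mature, was already present and was at 0.40 ± 0.029, and Csf1r, the M-CSF receptor, was at 1.13 ± 0.039, both below the shift of the spike-in scaling. Il1r1, the IL-1 receptor, fell by 1.42.

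Receptors for microbes and antibodies rose for the most part, 19 of 25 measured being called higher and 4 lower (median 1.08, or −0.16 with spike-in scaling). Fcgr4, an activating Fc receptor for IgG, stood at 414 and 422 in C/EBPalpha cells and 20.2 and 22.7 in empty vector cells (4.29 ± 0.085). Cd14, the LPS co-receptor, stood at 149 and 159 in C/EBPalpha cells and 19.1 and 16.8 in empty vector cells (3.11 ± 0.078), and Trem2, a lipid-sensing receptor of macrophages, at 299.5 and 275 in C/EBPalpha cells and 19.8 and 21.9 in empty vector cells (3.79 ± 0.058). All 3 were several-fold above the empty vector arrays on both C/EBPalpha arrays. Clec5a, a lectin that signals through DAP12, was at least 11.3-fold higher. The lectin gene Clec4d fell by 0.54, and Fcgr1, the high-affinity IgG receptor, by 0.34.

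Genes of monocytes and macrophages did not move as a block: of 24 measured, 15 were called higher and 5 lower, with a median of 0.44, or −0.80 with spike-in scaling, and 10 of 37 listed were below the filter, among them Cx3cr1, C1qa and Msr1. Mpeg1, which encodes the pore-forming perforin-2, stood at 702 and 689.7 in C/EBPalpha cells and 39.7 and 41.3 in empty vector cells (4.103 ± 0.039). The chemokine receptor Ccr2 was at least 5.38-fold higher and the scavenger receptor Cd36 at least 6.16-fold, both at signals near the detection limit. Adgre1, the F4/80 antigen, ran the other way, at 1784 and 1641 in C/EBPalpha cells and 4400.19 and 4450 in empty vector cells (-1.37 ± 0.036), and Lgals3 (galectin-3) fell by 0.65.

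Adhesion molecules were divided relative to the 75th percentile, with 11 of 26 measured called higher and 13 lower. The median was −0.18, or 0.04 under the highest of the other scalings. With spike-in scaling it was −1.42, against −1.38 over all genes, and 2 genes were called higher and 21 lower. The beta-2 integrin that neutrophils use, Mac-1, was higher in both its chains, Itgam at 12255 and 11823 in C/EBPalpha cells and 5311 and 5390 in empty vector cells (1.17 ± 0.045) and Itgb2 at 2389 and 2399 in C/EBPalpha cells and 1025 and 1007 in empty vector cells (1.24 ± 0.029), each within the shift of the spike-in scaling. Cd33, a sialic acid-binding lectin of myeloid cells, stood at 384 and 388 in C/EBPalpha cells and 27.98 and 26.1 in empty vector cells (3.84 ± 0.067). Itga4 and Itgb1, which pair as VLA-4, the integrin that binds progenitors to stroma, fell by 1.21 and 1.26. Itga2b, the megakaryocyte integrin chain, stood at 624 and 629.6 in C/EBPalpha cells and 3290 and 3222 in empty vector cells (-2.38 ± 0.031), and Itgax (CD11c) fell by 2.11.

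Chemokine and cytokine genes also went both ways, 13 of 19 measured being called higher and 5 lower (median 0.49, or −0.75 with spike-in scaling). Ccl6, a CC chemokine of myeloid cells, stood at 14071 and 14174 in C/EBPalpha cells and 919 and 924 in empty vector cells (3.94 ± 0.030). Ccl3 (MIP-1alpha) stood at 727 and 728 in C/EBPalpha cells and 89.05 and 91.6 in empty vector cells (3.01 ± 0.045), Il1b was at least 11.1-fold higher and Cxcl2, a neutrophil attractant that signals through CXCR2, at least 5.47-fold. These 4 were detected on both C/EBPalpha arrays. Besides Il6, Ccl17 stood at 17.1 and 15.5 in C/EBPalpha cells and 62.8 and 62.5 in empty vector cells (-1.94 ± 0.045), and Tnf fell by 0.95.

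Interferon-stimulated genes were more often called higher than lower, 24 against 6 of 34 measured (median 0.68, or −0.56 with spike-in scaling). The guanylate-binding protein gene Gbp6 stood at 62.4 and 66.5 in C/EBPalpha cells and 6.91 and 8.003 in empty vector cells (3.11 ± 0.15) and Dhx58 (LGP2), a regulator of RNA sensing, at 102 and 103 in C/EBPalpha cells and 22.1 and 21.2 in empty vector cells (2.24 ± 0.085). Ifitm3, which blocks viral entry, fell, at 8061 and 8239 in C/EBPalpha cells and 13920 and 13517 in empty vector cells (-0.75 ± 0.029). Of 11 measured genes of MHC class II presentation, 8 were called higher and none lower (median 0.72, or −0.52 with spike-in scaling), but 3 of the calls were of genes below detection in both groups. In that list Cd80, a costimulatory ligand, stood at 1304 and 1243 in C/EBPalpha cells and 246 and 252 in empty vector cells (2.36 ± 0.038), whereas H2-Ab1, a class II beta chain, had 2.78 and 2.02 with C/EBPalpha, against 1.44 and 1.04 with empty vectors and was not well above background in either group. Of 10 measured dendritic cell genes, 4 were called higher and 4 lower.

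Genes of lysosomes and lipid handling were more often called higher than lower relative to the 75th percentile. Of 27 measured cathepsin, cystatin and lysosome genes, 21 were called higher and 2 lower (median 0.64, or −0.60 with spike-in scaling). Ctsd, cathepsin D, stood at 13190 and 13296 in C/EBPalpha cells and 3506 and 3413 in empty vector cells (1.94 ± 0.028), and Gusb, beta-glucuronidase, fell by 1.35. Of 27 measured lipid genes, 17 were called higher and 9 lower (median 0.61, or −0.63 with spike-in scaling). Those with the largest rises take up lipid or make and break down glycerides: Lpl, lipoprotein lipase, was at least 59.4-fold higher with 169 and 172 with C/EBPalpha, against 2.15 and 0.679 with empty vectors, Dgat2, the acyltransferase of the last step of triglyceride synthesis, stood at 561 and 574 in C/EBPalpha cells and 42.6 and 41.02 in empty vector cells (3.76 ± 0.057), and Mgll, monoacylglycerol lipase, rose by 5.07. Among those that fell were genes that elongate or synthesise fatty acids, with Elovl6 at 457 and 430.04 in C/EBPalpha cells and 1338 and 1362 in empty vector cells (-1.61 ± 0.040) and Fasn, fatty acid synthase, at -1.004 ± 0.051.

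Glycolytic and pentose phosphate genes had no common direction relative to the 75th percentile, with 12 of 26 called higher and 13 lower. The median was −0.06, or 0.15 under the highest of the other scalings. With spike-in scaling it was −1.30, against −1.38 over all genes, and 3 genes were called higher and 22 lower. Those of the pentose phosphate pathway that yield NADPH rose, with Pgd, phosphogluconate dehydrogenase, at 11436 and 11156 in C/EBPalpha cells and 2904 and 2973 in empty vector cells (1.94 ± 0.029) and G6pdx, glucose-6-phosphate dehydrogenase, at 6665 and 6677 in C/EBPalpha cells and 2563 and 2688 in empty vector cells (1.35 ± 0.031). Hk2, hexokinase 2, and Slc2a1, the glucose transporter GLUT1, fell by 0.92 and 0.70. Of 26 cholesterol synthesis genes, 9 were called higher and 11 lower (34.6% and 42.3%, near the shares of 31.6% and 47.1% over all genes; median 0.07, negative with array-median and spike-in scaling).

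Genes of cell division fell nearly without exception, and with spike-in scaling the falls were larger. Of 33 genes of DNA replication and S phase, 32 were called lower, 21 of them at least 2-fold, and 1 higher, with a median of −1.13, or −2.37 with spike-in scaling. The 6 subunits of the MCM2-7 replicative helicase fell together, by 0.81 for Mcm6 to 1.23 for Mcm3, the signals of Mcm2 being 975 and 994 in C/EBPalpha cells and 2271 and 2233 in empty vector cells. Cdc6, which loads the helicase, stood at 124 and 125 in C/EBPalpha cells and 374 and 382 in empty vector cells (-1.605 ± 0.059), and Pola1, the catalytic subunit of DNA polymerase alpha, at 552 and 552 in C/EBPalpha cells and 1503 and 1559 in empty vector cells (-1.47 ± 0.039). In each case both C/EBPalpha arrays lay below both empty vector arrays. The gene called higher was E2f2, an activating E2F factor, at 2062 and 1965 in C/EBPalpha cells and 1284 and 1271 in empty vector cells (0.66 ± 0.032), with −0.59 by spike-in scaling. The E2F-type letters TTTGGCGC, TTTCGCGC, TTTCCCGC or TTTGCCGC, on either strand, occurred in the promoter window of 12 of 27 genes of the S phase list with a promoter (44.4%), against 4.33% of genes tested. They occurred for 1 of 22 mitosis genes, 4 of 21 MYC and nucleolar genes and 95 of 1324 genes that fell at least 2-fold.

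All 27 mitosis genes were called lower, 9 of them at least 2-fold, with a median of −0.87, or −2.11 with spike-in scaling. Ccnb1, cyclin B1, stood at 989.97 and 989 in C/EBPalpha cells and 2415 and 2429 in empty vector cells (-1.29 ± 0.036), and its partner kinase Cdk1 at 511 and 497 in C/EBPalpha cells and 1010 and 1052 in empty vector cells (-1.03 ± 0.037). Foxm1, the factor that drives mitotic genes, was at -1.31 ± 0.051. Of 17 measured inhibitors of cyclin-dependent kinases, D cyclins and retinoblastoma family genes, 4 were called higher and 10 lower (23.5% and 58.8%, against 31.6% and 47.1% of all genes; median −0.51, or −1.76 with spike-in scaling). Cdkn1b (p27), an inhibitor of cyclin-dependent kinases, stood at 733 and 705 in C/EBPalpha cells and 329 and 332 in empty vector cells (1.12 ± 0.038), with −0.12 by spike-in scaling, and Cdk4, the kinase of G1, at 3973 and 4195 in C/EBPalpha cells and 9614 and 9265 in empty vector cells (-1.21 ± 0.041).

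MYC and the genes of ribosome and polyamine synthesis made up the list with the lowest median, −1.61, or −2.86 with spike-in scaling. Of 27 measured, 24 were called lower, 20 of them at least 2-fold, and 2 higher. Myc stood at 691 and 712 in C/EBPalpha cells and 1840 and 1742 in empty vector cells (-1.35 ± 0.046), and its dimer partner Max at -0.50 ± 0.029. Srm, spermidine synthase, stood at 1461 and 1506 in C/EBPalpha cells and 7839 and 7774 in empty vector cells (-2.396 ± 0.028), Nolc1, a nucleolar chaperone, at 987 and 988 in C/EBPalpha cells and 4511 and 4450 in empty vector cells (-2.18 ± 0.029), and Dkc1, the pseudouridine synthase dyskerin, at -2.19 ± 0.072. Mxd1, a partner of Max that opposes MYC, moved the other way, at 567 and 567 in C/EBPalpha cells and 37.3 and 38.3 in empty vector cells (3.91 ± 0.052). The groups did not overlap for any of these genes.

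Survival and stress genes were mixed. Of 16 measured genes of apoptosis, 8 were called higher and 7 lower (median 0.11, negative with array-median and spike-in scaling). Bcl2, the founding survival factor of its family, stood at 280.2 and 291 in C/EBPalpha cells and 1400.50 and 1278 in empty vector cells (-2.23 ± 0.048), and Bmf, a proapoptotic BH3-only gene, at 139.6 and 147 in C/EBPalpha cells and 50.7 and 44.9 in empty vector cells (1.58 ± 0.067). Of 23 genes of the integrated stress response and amino acid supply, 7 were called higher and 14 lower (median −0.26). Slc7a11, the cystine transporter, stood at 118 and 119.9 in C/EBPalpha cells and 14.9 and 13.9 in empty vector cells (3.05 ± 0.075), while Shmt2 and Psat1, enzymes of serine and glycine metabolism, fell by 1.74 and 1.67. Hmox1, heme oxygenase 1, rose by 1.82, and Hsph1, a heat shock chaperone, fell by 1.29. Of 17 measured genes of JAK-STAT signalling and its feedback, 3 were called higher and 12 lower (median −0.43), the falls including Pim1 (-0.93 ± 0.032) and Pim2 (-1.49 ± 0.100), kinases induced by cytokines through STAT5.

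Among markers of other blood lineages, erythroid genes were mostly called lower. Of 14 measured erythroid genes, 9 were called lower and 3 higher (median −0.97, or −2.21 with spike-in scaling). Besides the beta globins, Hba-a1 stood at 28.3 and 27.1 in C/EBPalpha cells and 179 and 165 in empty vector cells (-2.63 ± 0.093) and Gata1, the erythroid zinc finger factor, at 20.9 and 29.8 in C/EBPalpha cells and 66.1 and 71.7 in empty vector cells (-1.46 ± 0.22). Of 14 megakaryocyte genes, 6 were called higher and 4 lower, and of 23 genes of basophils, mast cells and eosinophils, 12 were called higher and 8 lower (median 0.53, or −0.71 with spike-in scaling). In the last list the ribonuclease gene Ear2 was at least 27.6-fold higher and Epx, eosinophil peroxidase, stood at 111 and 115 in C/EBPalpha cells and 27.8 and 27.6 in empty vector cells (2.03 ± 0.14), while Gzmb, granzyme B, fell by 2.58 and Cd200r3 by 1.84. Of 14 listed B cell genes 7 were measured and Pax5, Ebf1 and Ms4a1 were not well above background on any array, and of 18 listed T and NK genes 11 were measured. The called members of these 2 lists were 4 higher and none lower, and 4 higher and 3 lower.

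The other 4 arrays showed the C/EBPalpha change in cells that also received IRF8, a transcription factor of monocytes and dendritic cells. There, both factors minus IRF8, 10961 genes were called (82.2%), 4810 higher (36.1%) and 6151 lower (46.1%), or 1789 and 9334 with scaling to the array median, 6670 and 4616 with the percentile over detected probes and 521 and 11921 with spike-in scaling. Changes of at least 2-fold were called upward for 1812 genes (13.6%) and downward for 2203 (16.5%). Of these upward genes 1021 had also risen at least 2-fold without IRF8, which is 68.2% of the 1498 genes without IRF8 and 56.3% of the 1812 with it. Downward, 1243 were shared, which is 76.4% of the 1627 and 56.4% of the 2203. These 2 comparisons share no array, but all 8 arrays lay on 1 slide and share the position difference. Both also use the same probe filter and 1 estimate of each gene's spread, so their calls are not independent.

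The size of the change often depended on IRF8. The test of the difference, change with IRF8 minus change without, called 7429 genes (55.7%), 3175 positive (23.8%) and 4254 negative (31.9%), at least 2-fold for 529 (3.97%) and 836 (6.27%), or 104 and 518 after normexp background correction. The split was 788 and 7708 with array-median scaling, 4128 and 3488 with the percentile over detected probes and 827 and 7118 with spike-in scaling. The granule genes rose more without IRF8: for the late neutrophil list the median change was 5.25 without IRF8 and 3.85 with it, and the difference was called negative for 25 of 27 genes and positive for 2. Ltf changed by 7.88 without IRF8 and 5.22 with it (difference -2.66 ± 0.069), and Lyz2 by 6.46 and 3.21 (difference -3.25 ± 0.041). Lyz2 was already higher with IRF8 alone, at 841 and 851, against 144 and 147 with empty vectors. The 2 exceptions were S100a9, with 4.77 without IRF8 and 5.34 with it, and Wfdc21, with 6.32 and 6.52. Primary granule genes had medians of 1.61 and 1.09, with the difference called negative for 13 of 17.

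Cell division genes ran the other way and fell further in cells with IRF8. The median of the S phase list was −1.13 without IRF8 and −2.15 with it, with the difference called negative for 31 of 33 genes, and the mitosis list had −0.87 and −2.31, with 26 of 27 called negative. MYC and nucleolar genes had −1.61 and −2.04. Csf2ra rose by 3.56 without IRF8 and by 0.94 with it, and Trem2 by 3.79 and 0.59. Both were higher with IRF8 alone than with empty vectors. Csf2ra stood at 521 and 550 with IRF8 alone, against 151 and 146, and Trem2 at 697 and 696, against 19.8 and 21.9. With both factors Csf2ra stood at 1036 and 1013, below C/EBPalpha alone (1771 and 1721). Trem2 stood at 1059 and 1035 with both, above C/EBPalpha alone (299.5 and 275).

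**Figure D5:**
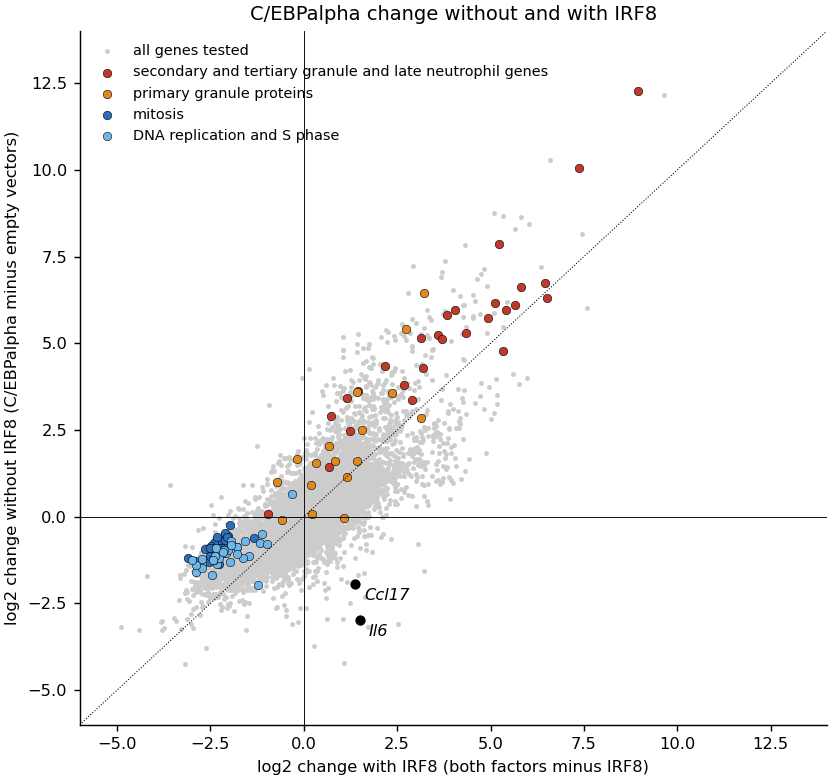
Log2 change with C/EBPalpha in cells without IRF8 (vertical axis, C/EBPalpha minus empty vectors) against that in cells with IRF8 (horizontal axis, both factors minus IRF8), 1 point a gene; the dotted line marks equal change. Most late neutrophil genes (red) lie above the line, as do most S phase and mitosis genes (blue), which are at negative changes on both axes, and Il6 and Ccl17 lie in the quadrant of a fall without IRF8 and a rise with it.

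Some genes changed direction: of the 4221 called higher without IRF8 325 were called lower with it (7.7%), and of the 6288 called lower 319 were called higher (5.07%). Il6 changed by -2.97 ± 0.13 without IRF8 and by 1.502 ± 0.13 with it, its scaled signals in the second pair being 38.3 and 44.9 with both factors, against 15.1 and 14.2 with IRF8 alone. Ccl17, a chemokine made by dendritic cells and macrophages, changed by -1.94 ± 0.045 without IRF8 and by 1.38 ± 0.045 with it, at 13736 and 13786 with both factors, against 5283 and 5273 with IRF8 alone. The differences were 4.47 ± 0.19 and 3.32 ± 0.063 (limma, adjusted p = 2.6e-09 and 1.7e-11). With spike-in scaling every change with IRF8 was lower, and the median over all genes was −1.68 instead of −0.09. That shift exceeds the rises of Il6 and Ccl17 with IRF8. Relative to the spike-ins, neither gene was higher with both factors than with IRF8 alone. In all, 10 genes were called at least 2-fold in opposite directions, of which Il6 and Ccl17 were detected on all 8 arrays and Resp18 on all but those with both factors. Ikzf1 rose by 1.73 without IRF8 and was lower by 0.39 with it.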

How the data were processed

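Agilent's Feature Extraction 10.7.3.1 made the scanner files (protocol GE1_107_Sep09, probes placed on mm9, per the file headers), and the deposited intensity used here is its processed signal, already background-subtracted. The deposited flags for signal well above background and for outlier spots served as filters. The deposited series table holds normalized intensity on a linear scale, each column with a median of 19.2121, and correlated at 0.996 to 0.998 (log2, across probes) with quantile-normalized scanner values; how the authors made it is not stated.

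Here log2 intensity minus the log2 75th percentile of the array was used, outlier spots were left out, spots of a probe were averaged, and probes were kept when well above background on both arrays of any of the 4 groups of this line. Of 55681 probes, 26762 matched 1 symbol in RefSeq (GRCm38.p6) and the rest none. The brightest kept probe stood for a gene, which left 13337 of 20284 symbols, and of 3438 genes with several kept probes 260 had a called probe of opposite sign. limma 3.58.1 (R 4.3.3) fitted 4 group means over the 8 arrays with an intensity trend, and p-values were adjusted over all genes by Benjamini-Hochberg. With 2 arrays a group the number of arrays limits the precision. The fit was tested on simulated data.

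The named genes were the 12 largest rises and falls detected on all 4 arrays with 1 sign in both same-numbered pairs, the 5 largest bounds each way, and for each of 33 gene lists the called members with up to 4 of the largest rises and falls and members that complete a complex or receptor pair; Lcn2, Hp, Cd177, Chil3, Pglyrp1, Padi4, Cxcr4, Csf3r, Csf1r, Cebpb and Gata1 were added after their values were seen. Some genes that this rule names are not reported here. The gene lists, like the comparison itself, were chosen with earlier results of these data known. A bound set the bright group's mean against the dim group's mean of, on each array, the higher of the lowest detected signal and the probe's own. Experiment numbers did not pair the arrays: deviations of same-numbered arrays correlated at −0.06492 to 0.05361. Python 3.11.15 with pandas 2.3.3 searched promoters, and matplotlib 3.10.9 drew the figures. Alternatives were other scalings (array median, percentile over detected probes, quantile), normexp background with an offset of 50, the series table, other probe filters, the mean of a gene's probes, only the 4 arrays compared, no intensity trend, a replicate block and each array left out. Scaling to spike-ins and a filter on the 2 groups compared were added after seeing the data.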

Additional observations from a re-analysis of the deposited data

Results flagged for a closer look

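The change with C/EBPalpha differed between cells with and without IRF8 by the test of the difference for 7429 of 13337 genes. Among the 12 largest rises and 12 largest falls, Il6 was the gene called in opposite directions with the 75th percentile scaling. Its difference was 4.47 (change with IRF8 minus change without), and its signal was below the 75th percentile of the array on all 8 arrays. Relative to the spike-ins, Il6 did not rise with C/EBPalpha in cells with IRF8. The number of called differences ranged between 6668 and 8496 over the alternatives run.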

How the results depend on the processing

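Counts of genes called in either direction stayed within 1.5 times the reported ones under the alternatives run, but the split by direction and the counts at 2-fold did not. For C/EBPalpha alone, 2676 genes were higher with array-median scaling, 7940 of 20280 with no filter on dim probes, and 779 higher and 11563 lower with spike-in scaling; at 2-fold the counts were 1030 higher and 3063 lower with array-median scaling, 1002 lower with the percentile over detected probes, 2573 higher with no filter and 462 higher and 9034 lower with spike-ins. With IRF8, 1789 were higher and 9334 lower with array-median scaling, 9382 higher with no filter and 521 higher and 11921 lower with spike-ins, and at 2-fold 727 and 5430, 6147 higher, and 280 and 10152; the percentile over detected probes gave 2753 and 1421 at 2-fold and normexp 1190 higher. Differences were 788 positive and 7708 negative with array-median scaling and 827 and 7118 with spike-ins, and at 2-fold 222 and 1805, 252 and 1685, 104 and 518 with normexp and 286 positive among genes detected on all 8 arrays. With each of the 4 arrays left out in turn, 9880 to 10177 genes were called, 3884 to 4057 higher and 5996 to 6133 lower, and with IRF8 10874 to 11026 genes and 6668 to 7077 differences were called. The replicate block gave 10492 calls, with 71 lost and 54 gained, and moved no count by over 1.5 times. Among all genes called at least 2-fold, 147 changed sign after normexp correction and 372 with spike-in scaling. Of 2656 repeats of the named changes, most of them picked for their size, 2603 kept direction and side of the threshold. Calls were lost with spike-ins for G6pdx (0.10) and Id2 (0.064), with array-median scaling for Csf3r (0.094), Il3ra (0.033) and Rac2 (0.025), with normexp for Cebpb, Nqo1 and Prdm12, with the percentile over detected probes for Csf2rb, with only the 4 arrays compared for H2-Ab1, and with no intensity trend for Calr, Egr2 and Nqo1. Those that reversed with spike-in scaling were Cdkn1b (−0.12), Cebpb (−1.06), Csf1r (−0.11), Csf3r (−0.84), Cyba (−0.12), Cybc1 (−0.47), Ddit3 (−0.33), E2f2 (−0.59), H2-Ab1 (−0.29), Il3ra (−0.90), Itgam (−0.072), Itgb2 (−0.0050), Myb (−0.69), Padi4 (−1.17), Rac2 (−0.91) and Spi1 (−0.052), because that scaling lowers every change by 1.24. Calr reversed with the percentile over detected probes (0.10), quantile normalization (0.082) and the series table (0.092), Rac1 likewise (0.063, 0.081 and 0.073), and Csf2rb with the quantile and series table values (0.030 and 0.024). After normexp correction Egr1 (0.39), Egr2 (0.46), Padi4 (−0.061) and Zfp36 (0.026) reversed, with array-median scaling Cebpb (−0.12) and Padi4 (−0.24), and in the series table H2-Ab1 (−0.63); the cause was not tested. Signal near background limits the genes below detection in a group, of which 145 were called though detected in neither.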

Other observations

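Letters of the E-box CACGTG, on either strand, were present in the promoter window of 5 of 21 MYC and nucleolar genes, against 1176 of 10690 genes tested.

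Among the T and NK genes, Cd3d, a chain of the T cell receptor complex, stood at 127 and 126 in C/EBPalpha cells and 23.1 and 24.1 in empty vector cells (2.42 ± 0.10), and among megakaryocyte genes Rab27b, a GTPase of granule release, stood at 57.1 and 55.6 in C/EBPalpha cells and 273 and 277 in empty vector cells (-2.29 ± 0.062). Zfp36 (tristetraprolin), which degrades cytokine transcripts, was at least 2.72-fold lower with C/EBPalpha alone, with 1.43 and 2.52 with C/EBPalpha, against 14.9 and 14.3 with empty vectors. Ldhb, a lactate dehydrogenase chain, was at least 2.87-fold higher, at 7.48 and 9.07 in C/EBPalpha cells and 0.756 and 0.768 in empty vector cells.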
